A study of Arabidopsis thaliana with 35 samples.

Results

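The genes described here dipped after 3 h in wild-type (WT) Arabidopsis seedlings on estradiol and were back near their starting level after 8 h. They are the 150 genes with the lowest 3 h value among the 10876 genes, of 32833 counted, that passed a limit on level and on the 8 h difference. For each gene the mean log2(CPM + 1), where CPM is the count scaled to 1e6 counts per library, was taken in WT at 0 h, 3 h and 8 h. Genes were kept with a mean of 5 CPM or more in WT at 0 h and an 8 h minus 0 h difference within 0.5, and the 150 with the lowest 3 h minus 0 h difference were taken. The genes were thus selected on the WT values at 0 h, 3 h and 8 h, which are therefore given as a description, with no test. The tests below come from the er XVE:ER and XVE:EPFL4 lines, which the choice did not use.

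The er XVE:ER line carries the er mutation and an estradiol-inducible copy of ERECTA (ER), a receptor kinase, driven by XVE, an estradiol-activated transcription factor expressed from the 35S promoter. The XVE:EPFL4 line carries an inducible copy of EPFL4, a gene for a secreted peptide ligand of the ER family, in a WT background. WT seedlings received estradiol on the same schedule. All seedlings were 7 days old and were sampled whole, either uninduced (0 h) or after 3 h or 8 h with 5 mM estradiol, as the labels give it. The uninduced seedlings are labelled mock at 0 hours, whereas the study's methods describe mock plates kept for 3 h, so the time of day of this starting group relative to the induced groups is uncertain. Each condition had 4 libraries except er XVE:ER at 3 h, which had 3 (replicates 1, 2 and 4). The study pooled several seedlings for each library, so p-values measure the spread between such pools. Fewer cells of a type and less RNA per cell cannot be told apart in whole seedlings.

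Ribosomes are assembled in the nucleolus from rRNA made by RNA polymerase I, which small nucleolar ribonucleoproteins modify and a series of processing factors trims and folds. In chloroplasts, newly imported proteins are folded by stromal chaperones and chaperonins. Starch made by day is degraded at night to maltose by beta-amylases, and a set of sugar-repressed genes is switched on when carbon runs short. Many plant genes follow the time of day.

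The promoters of the ribosome genes are known for a pair of short motifs, the telo-box (AAACCCTA) and the site II element (TGGGCC). Both were searched on both strands in windows from 250 bases before to 50 bases after the annotated start of each gene. The telo-box stood in 24 of the 150 windows (16.0%), against 6.22% of all 27443 promoters, and in 8 of 16 windows of the ribosome and nucleolus genes described below. The site II element stood in 39 of the 150 windows (26.0%), against 15.5% of all promoters. It stood in 10 of 16 ribosome windows (62.5%) and in 4 of 11 windows (36.4%) of the genes for plastid chaperones and plastid gene expression. A match is a description of the sequence and does not show that a factor binds there. The 150 genes had to reach 5 CPM in WT at 0 h, a level that 14861 genes reached. The 27443 promoters had no such limit. Shares among genes of that level, and among ribosome genes at large, were not counted for any motif. The differences from all promoters are thus not shown to be particular to the 150. The 250 bases before the start of 5 such genes are shown for their motifs, in capitals on either strand, read from the RefSeq TAIR10.1 assembly. The genes are FIB1 (chr5:21293897-21294146, plus strand), AT2G37600 (chr2:15775375-15775624, minus strand), AT4G12600 (chr4:7452946-7453195, plus strand), CR88 (chr2:1281504-1281753, plus strand) and CPN60A (chr2:11926196-11926445, plus strand).
FIB1: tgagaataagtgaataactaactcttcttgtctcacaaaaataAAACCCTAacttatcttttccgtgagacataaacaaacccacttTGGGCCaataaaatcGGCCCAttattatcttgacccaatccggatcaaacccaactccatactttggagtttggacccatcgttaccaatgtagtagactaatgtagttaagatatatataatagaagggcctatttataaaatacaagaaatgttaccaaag
AT2G37600: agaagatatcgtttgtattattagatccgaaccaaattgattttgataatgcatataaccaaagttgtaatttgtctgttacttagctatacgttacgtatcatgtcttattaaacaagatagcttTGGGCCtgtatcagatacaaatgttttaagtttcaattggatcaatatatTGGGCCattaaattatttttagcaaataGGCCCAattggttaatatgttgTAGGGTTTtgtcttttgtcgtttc
AT4G12600: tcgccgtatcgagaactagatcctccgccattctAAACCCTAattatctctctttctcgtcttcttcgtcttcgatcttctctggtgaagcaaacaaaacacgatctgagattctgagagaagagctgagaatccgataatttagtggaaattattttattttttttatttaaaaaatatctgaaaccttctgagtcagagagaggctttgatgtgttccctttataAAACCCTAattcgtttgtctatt
CR88: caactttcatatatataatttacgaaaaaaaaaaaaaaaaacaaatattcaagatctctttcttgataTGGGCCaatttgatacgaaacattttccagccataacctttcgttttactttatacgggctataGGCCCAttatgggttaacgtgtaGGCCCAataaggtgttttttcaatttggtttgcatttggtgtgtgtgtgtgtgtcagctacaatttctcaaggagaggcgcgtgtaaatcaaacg
CPN60A: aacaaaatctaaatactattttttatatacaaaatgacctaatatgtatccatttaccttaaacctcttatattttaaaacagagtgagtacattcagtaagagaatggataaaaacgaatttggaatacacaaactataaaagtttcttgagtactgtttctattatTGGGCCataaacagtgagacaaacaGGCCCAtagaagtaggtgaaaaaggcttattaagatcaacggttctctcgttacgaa
FIB1 and AT2G37600 held both motifs, AT4G12600 held 2 telo-boxes and no site II element, and CR88 and CPN60A held site II elements alone. Among the other motifs searched the same way, the sugar-repressed element (TTATCC) stood in 24.7% of the windows of the 150 genes, against 14.8% of all promoters. The I-box (GATAAG), which overlaps it in part, stood in 15.3%, against 14.6% of all promoters, and the CCA1-binding site (AAAAATCT), bound by a morning clock protein, stood in 2.00%, against 7.88%.

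The 150 genes are all protein-coding and lay on all 5 nuclear chromosomes. Their mean level in WT at 0 h ran from 5.17 CPM to 1966 CPM, with a median of 44.0 CPM. Of these genes, 43 overlap another annotated gene. Because the strand setting of the counting is not stated, reads from overlapping genes may not have been told apart.

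Total counts per library ran from 18224765 to 25089853. ER was at 44.5 to 67.8 CPM in er XVE:ER at 0 h, 267 to 457 CPM at 3 h and 724 to 1540 CPM at 8 h. EPFL4 was at 1.35 to 3.39 CPM in XVE:EPFL4 at 0 h and at 820 to 3010 CPM in the induced libraries of that line. Thus the induced genes followed the labels in both lines. Some libraries nevertheless stood apart from their groups. Over all genes of 5 CPM or more, 28 of 35 libraries correlated best with a library of their own group. The library labelled er XVE:ER 0 h replicate 4 was closest to WT 3 h replicate 4 (r = 0.943 across genes, which are not independent). The morning clock gene LHY was at 22.3 CPM in that er XVE:ER library, against 214 to 232 CPM in the other er XVE:ER libraries at 0 h, and 29.0 to 37.2 CPM at 3 h. WT 3 h replicate 4 had 10.7 CPM of LHY, against 32.5 to 42.2 CPM in the other WT libraries at 3 h. The morning clock genes fell over the same hours as the genes described here: 9 of 12 fell and 2 rose in XVE:EPFL4 at 3 h, and 3 fell and 1 rose in er XVE:ER. Of 11 evening clock genes, 0 were called lower and 8 higher in XVE:EPFL4 at 3 h, and 1 lower and 4 higher in er XVE:ER. The part of these clock genes in the results, and that of the time of day, was not tested. The 13 root markers summed to 3820 to 4091 CPM in er XVE:ER at 3 h, against 2055 to 2671 CPM at 0 h, and to 3205 to 3850 CPM in XVE:EPFL4 at 3 h, against 2311 to 3354 CPM at 0 h. The 12 shoot markers summed to 55300 to 59170 CPM in er XVE:ER at 3 h, against 49260 to 75320 CPM at 0 h, and to 53450 to 56450 CPM in XVE:EPFL4 at 3 h, against 47750 to 61040 CPM at 0 h. None of these markers was at 0 in a library, and their part in the results was not tested.

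In WT the 150 genes had a median 3 h minus 0 h difference of -0.74, from -2.25 for BT2 to -0.64, and a median 8 h minus 0 h difference of -0.15. Just inside the limit stood AT5G25240 and Phox3, both at -0.64, and just outside it OCT4 and AT5G62340, also at -0.64. In 144 of the 150 genes WT 3 h replicates 1 to 3 lay below all 4 libraries at 0 h, and in 127 replicate 4 did so too. At 8 h the mean was held near its starting level by the choice of the genes, and it covered replicates that differed. In 78 genes WT 8 h replicates 1 and 4 both lay above replicates 2 and 3, and in 32 genes both lay below them. The highest 8 h library was more than 2 times the lowest in 38 genes and more than 10 times in 10 genes. In 91 genes all 4 WT libraries at 8 h lay above WT 3 h replicates 1 to 3. For the other genes the 8 h level in WT was back near the start as a mean but not in every library.

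The 8 genes with the deepest WT dip were BT2, CT-BMY, AT1G05675, DIN10, CR88, BGAL1, AT5G39580 and AT2G24600. BT2 (BTB and TAZ domain protein 2), a scaffold protein whose gene is repressed by sugar, had 564, 401, 509 and 476 CPM in WT at 0 h, 56.0, 61.7, 56.2 and 528 CPM at 3 h, and 1126, 132, 372 and 1131 CPM at 8 h. Its replicate 4 at 3 h thus lay within the 0 h values while the other replicates lay far below. CT-BMY, a chloroplast beta-amylase that releases maltose from starch, had 313, 289.9, 326 and 281 CPM in WT at 0 h, 106, 141, 104 and 85.4 CPM at 3 h, and 252, 432, 529.6 and 239 CPM at 8 h. For CT-BMY all 4 libraries at 3 h lay below those of the other times. DIN10, a dark-inducible gene of the raffinose synthase family, had 842, 524, 1182 and 788 CPM at 0 h, 164, 179, 242 and 1333 CPM at 3 h, and 1729, 129, 218 and 1835 CPM at 8 h. BGAL1, a beta-galactosidase, had 209 to 232 CPM in WT 3 h replicates 1 to 3 and 919 CPM in replicate 4, against 699.5 to 789 CPM at 0 h. CR88, the chloroplast HSP90 chaperone, had 293, 277, 249 and 311 CPM in WT at 3 h, against 597, 686, 702 and 704 CPM at 0 h. AT1G05675, a UDP-glycosyltransferase, was low throughout, with 2.63, 1.13, 1.38 and 2.71 CPM at 3 h against 6.37, 4.51, 7.33 and 9.22 CPM at 0 h, and its 8 h libraries had 24.7, 0.278, 0.626 and 15.2 CPM. AT5G39580, a peroxidase, and AT2G24600, an ankyrin repeat protein, showed the same split at 8 h, with 104, 2.50, 1.78 and 65.9 CPM for AT5G39580.

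**Figure D1:**
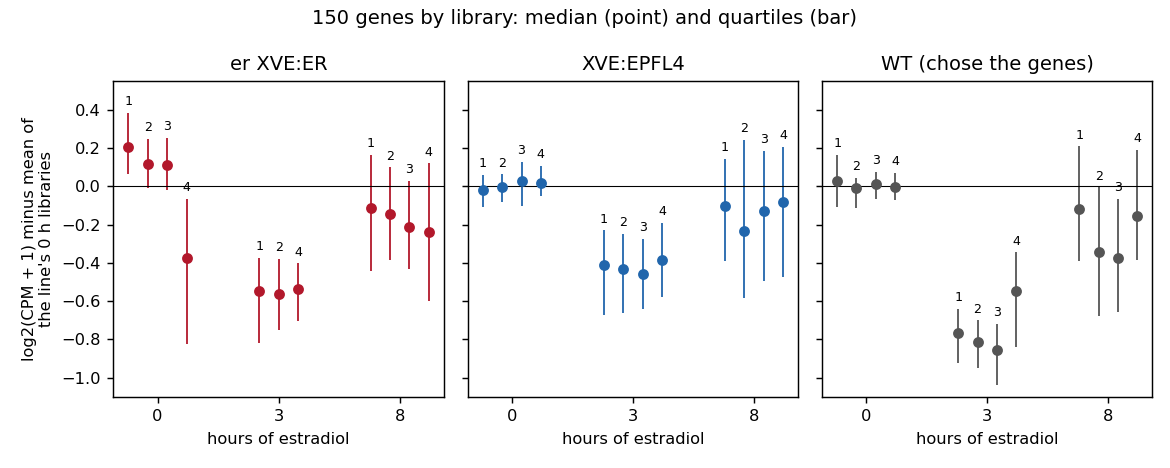
Median (point) and quartiles (bar) over the 150 genes of log2(CPM + 1) minus the mean of the same line's 0 h libraries, for each library (number, replicate) against hours of estradiol, in er XVE:ER, XVE:EPFL4 and WT, whose values chose the genes. All 3 h libraries of er XVE:ER and XVE:EPFL4 sit below 0, and er XVE:ER 0 h replicate 4 sits at -0.37, apart from the other 0 h libraries of that line.

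The genes lowered in WT were also lower after 3 h in er XVE:ER seedlings. All 150 had a negative log2 fold change at 3 h against 0 h, with a median of -0.64 against -0.01 over all 20329 genes tested. Of them 56 were called lower and 0 higher (edgeR quasi-likelihood test, Benjamini-Hochberg adjusted p under 0.05), against 2.53% of all genes called lower and 4.51% called higher. At the level of libraries, the median over the 150 genes lay between -0.56 and -0.54 in the 3 libraries at 3 h, against 0.20, 0.11, 0.11 and -0.37 in the 4 libraries at 0 h, as the plot of library medians shows. In 78 genes the libraries at 3 h and 0 h did not overlap, against 13.8% of all genes. These counts depended on the 0 h library that stood apart. Without er XVE:ER 0 h replicate 4, 109 genes were called lower, against 6.35% of all genes, and 144 genes did not overlap, against 23.6%. Without 3 h replicates 1, 2 or 4 the count of 56 became 17, 16 or 25, against 0.502%, 0.429% or 0.716% of all genes. Without 0 h replicates 1 or 3 it became 36 or 37, against 1.11% or 1.46% of all genes.

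The dip was also found in XVE:EPFL4 seedlings. There 143 of the 150 genes had a negative log2 fold change at 3 h against 0 h, with a median of -0.44 against 0.00 over all 20356 genes tested. Of them 93 were called lower and 0 higher, against 10% of all genes called lower and 11% called higher. The library medians lay between -0.46 and -0.39 at 3 h, against -0.02 to 0.03 at 0 h. In 101 genes the libraries at 3 h and 0 h did not overlap, against 16.0% of all genes. No library moved the count of 93 outside 75 to 104 when it was left out. The 7 genes with a positive log2 fold change were AT5G39580, AT4G22517, SQD1, AT2G39400, ABCG42, PHO1;H1 and AT1G65080, and none of these was called.

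Because the lines share no library, their calls could be set side by side. 47 genes were called lower in both lines, which is 83.9% of the 56 called in er XVE:ER and 50.5% of the 93 called in XVE:EPFL4. Over all 20140 genes tested in both lines, 337 were called lower in both, or 66.1% of the calls in er XVE:ER and 16.7% of those in XVE:EPFL4. Another 46 of the 150 were called in XVE:EPFL4 alone, 9 in er XVE:ER alone and 48 in neither. Across the 150 genes the 3 h log2 fold changes of the lines had a Pearson r of 0.488 and a Spearman rho of 0.38, given as a description over genes that are not independent. Over all 20140 genes the values were higher, with an r of 0.659 and a rho of 0.597.

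**Figure D2:**
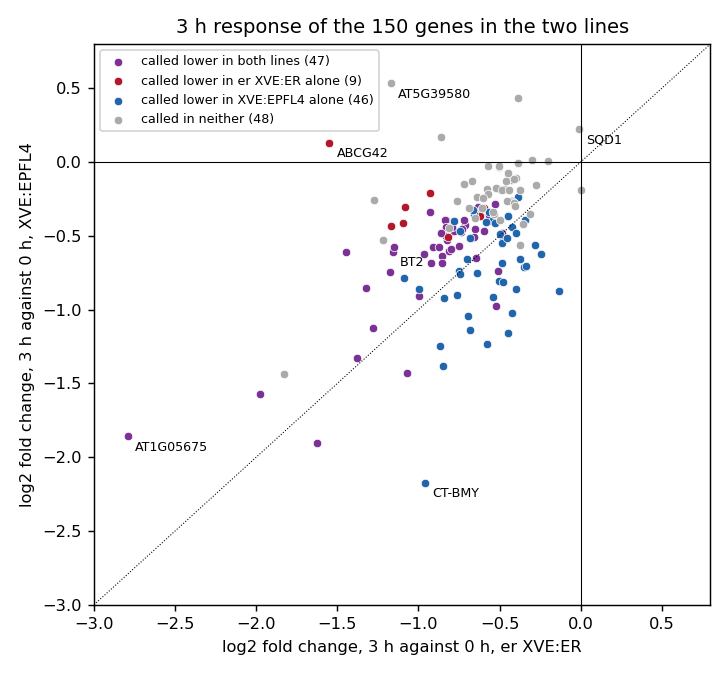
Fitted log2 fold change at 3 h against 0 h in er XVE:ER (x axis) and in XVE:EPFL4 (y axis), 1 point per gene, coloured by the line in which the gene was called lower; the dotted line marks equal change. All 150 points lie at or left of 0 on the x axis and 143 lie below 0 on the y axis.

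Whether the lines differed in the size of the dip was tested as the er XVE:ER minus XVE:EPFL4 difference of the 3 h responses. None of the 150 genes passed (0 called, against 0.130% of all 20777 genes, adjusted p of 0.134 or more). The median difference was -0.24, and 112 genes had a lower value in er XVE:ER. 17 genes (11.3%) had an unadjusted p under 0.05, against 8.22% of all genes. DESeq2 called 2 of the 150, CS26 and ABCG42. Without er XVE:ER 0 h replicate 4 edgeR called 2 others, FLN2 (-0.77 ± 0.15 SE, adjusted p = 0.0232) and PDE340 (-0.78 ± 0.13 SE, adjusted p = 0.00867). Thus a gene called in a single line is not shown to differ between the lines.

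The 4 genes with the lowest p for that difference were CS26, ABCG42, AT3G07870 and DIM1A. CS26, the plastid enzyme that makes S-sulfocysteine, had 10.9, 12.7 and 15.2 CPM in er XVE:ER at 3 h, against 22.5, 25.03, 27.6 and 23.3 CPM at 0 h. In XVE:EPFL4 it had 17.0, 19.0, 19.0 and 17.44 CPM at 3 h, against 22.3, 18.3, 22.1 and 20.6 CPM at 0 h. The groups thus separated in er XVE:ER and overlapped in XVE:EPFL4, and CS26 changed by -0.93 ± 0.14 on the log2 scale in er XVE:ER (SE, adjusted p = 0.00245), with -0.21 ± 0.11 in XVE:EPFL4 (SE, adjusted p = 0.23). ABCG42, an ABC transporter, had 3.91, 4.65 and 5.62 CPM in er XVE:ER at 3 h, against 11.1, 8.60, 9.30 and 26.3 CPM at 0 h. Its 0 h replicate 4 was far above the others, yet all 0 h libraries lay above those at 3 h. In XVE:EPFL4, ABCG42 had 6.81 to 10.6 CPM at 3 h, against 6.26 to 12.5 CPM at 0 h. AT3G07870, an F-box protein, had a log2 fold change of -0.52 ± 0.12 (SE) in er XVE:ER and -0.98 ± 0.10 (SE) in XVE:EPFL4. For DIM1A, which dimethylates rRNA of the small ribosomal subunit, the values were -0.83 ± 0.14 (SE) in er XVE:ER and -0.40 ± 0.09 (SE) in XVE:EPFL4. The adjusted p of the difference was 0.33 for AT3G07870 and 0.439 for DIM1A.

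After the dip, levels were higher at 8 h than at 3 h in both lines. For er XVE:ER, 38 of the 150 genes were called higher and 0 lower at 8 h against 3 h, against 6.92% of all genes called higher and 5.71% called lower, with a median log2 fold change of 0.44. Without er XVE:ER 0 h replicate 4 the count was 76, against 12.8% of all genes, and without 3 h replicates 1, 2 or 4 or 8 h replicate 2 it was 13, 12, 15 or 23, against 2.36%, 2.35%, 2.87% or 4.50% of all genes. In XVE:EPFL4, 80 genes were called higher and 17 lower, against 16.4% and 14.8% of all genes, with a median of 0.36. The 8 h against 3 h comparison uses the same 3 h libraries as the 3 h against 0 h comparison, so a chance low value at 3 h enters both.

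Set against 0 h, the genes were mostly not above their start at 8 h. For er XVE:ER, 21 were called lower and 1 higher at 8 h against 0 h, against 10.4% and 12.1% of all genes, and the median log2 fold change was -0.21. Without 0 h replicate 4, 52 were called lower and 2 higher, against 14.4% and 16.7% of all genes, so that calls over all genes also rose. In XVE:EPFL4, 54 were called lower and 23 higher, against 20.2% and 22.8% of all genes, with a median of -0.11. The root markers moved over the same hours: 9 of 13 were called lower and 0 higher at 8 h against 0 h in XVE:EPFL4 (median -0.95), and 9 lower and 0 higher at 8 h against 3 h (median -1.46). They summed to 1401 to 3459 CPM at 8 h in that line, and the shoot markers to 34190 to 64780 CPM, with the lowest root and the highest shoot sum both in replicate 2. Without XVE:EPFL4 8 h replicate 2, 54 genes were called lower and 26 higher at 8 h against 0 h (all genes, 21.3% and 22.5%). In the same fit 81 were called higher and 12 lower at 8 h against 3 h (all genes, 14.4% and 15.1%). In er XVE:ER, 3 of the 13 root markers were called lower and 2 higher at 8 h against 0 h. The part of these markers in the results was not tested. The 1 gene called higher in er XVE:ER was BT2.

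The 6 largest falls in er XVE:ER among called genes with groups that did not overlap were AT1G05675, AT2G24600, AT2G25460, ABCG42, AT2G31810 and AT1G50740. AT1G05675 had 0.322, 0.868 and 3.07 CPM in er XVE:ER at 3 h, against 10.9, 9.76, 5.72 and 13.5 CPM at 0 h (-2.79 ± 0.60 SE on the log2 scale, adjusted p = 0.0173). AT2G24600 had 5.75, 8.47 and 14.4 CPM at 3 h, against 45.5, 30.6, 21.1 and 53.1 CPM at 0 h (-1.98 ± 0.44 SE, adjusted p = 0.0193). AT1G05675 is low in level, and for both genes the lowest 0 h library lay above the highest 3 h library. AT2G31810, a regulatory subunit of acetolactate synthase in branched-chain amino acid synthesis, had 48.9, 63.6 and 78.8 CPM at 3 h, against 133, 119.7, 131 and 309.7 CPM at 0 h (-1.45 ± 0.34 SE, adjusted p = 0.0238). Its value in 0 h replicate 4 was far above the others, and the fit without that library gave -1.01 ± 0.21 (SE, adjusted p = 0.0071). AT2G25460 (-1.62 ± 0.44 SE), which carries an EEIG1/EHBP1 domain, and AT1G50740 (-1.38 ± 0.30 SE), a transmembrane protein, fell as well.

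In XVE:EPFL4 the 6 largest such falls were CT-BMY, AT2G25460, AT1G05675, AT2G24600, RHA2B and PPa2, of which 3 were also among the largest in er XVE:ER. CT-BMY had 60.8, 61.8, 63.6 and 51.6 CPM in XVE:EPFL4 at 3 h, against 325, 271, 248 and 224 CPM at 0 h (-2.17 ± 0.21 SE, adjusted p = 9.27e-06). At 8 h it had 386, 281, 197 and 183 CPM, again far above every 3 h library. In er XVE:ER it had 110.1, 93.4 and 97.4 CPM at 3 h, against 281, 242, 235 and 22.3 CPM at 0 h, and was not called (adjusted p = 0.383). The low value is that of 0 h replicate 4, and the fit without that library gave -1.34 ± 0.29 (SE, adjusted p = 0.0107). RHA2B, a RING-type ubiquitin ligase of abscisic acid signaling, had 5.52, 5.10, 5.29 and 5.96 CPM in XVE:EPFL4 at 3 h, against 11.1, 17.1, 17.0 and 13.4 CPM at 0 h (-1.43 ± 0.14 SE, adjusted p = 9.17e-06). PPa2, annotated as a pyrophosphorylase, had 18.9 to 23.2 CPM at 3 h, against 50.2 to 68.3 CPM at 0 h.

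Some of the 150 genes were not called lower in a given line. The 4 highest log2 fold changes at 3 h in er XVE:ER were those of AT3G59670 (0.00), SQD1 (-0.01), AT5G17040 (-0.13) and PHO1;H1 (-0.20), and the 4 highest in XVE:EPFL4 were those of AT5G39580 (0.53), AT4G22517 (0.43), SQD1 (0.22) and AT2G39400 (0.17). None of these was called in the line it is listed for, and AT5G17040 fell in XVE:EPFL4 (-0.88 ± 0.23 SE, adjusted p = 0.0164). SQD1, an enzyme of chloroplast sulfolipid synthesis and the only member from the phosphate starvation list, had 89.1, 87.9, 117 and 73.2 CPM in WT at 3 h, against 162, 168, 128 and 149.1 CPM at 0 h. In XVE:EPFL4 it had 96.0, 74.0, 82.98 and 79.9 CPM at 3 h, against 69.4, 70.5, 65.8 and 78.2 CPM at 0 h. Its 0 h level in both lines, 47.1 to 88.4 CPM in er XVE:ER and 65.8 to 78.2 CPM in XVE:EPFL4, was thus close to the WT level at 3 h. AT5G39580 had 13.6 to 28.8 CPM in XVE:EPFL4 at 3 h, against 5.63 to 26.0 CPM at 0 h, groups that overlap.

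By known role, 51 of the 150 genes fell into 6 groups, which were put together after the genes were known. The genes named within these groups below were also chosen after their values were seen, unless they are named above. The largest was the ribosome and nucleolus group of 16 genes. At 3 h in er XVE:ER, 5 of the 16 were called lower and 0 higher, against 2.53% and 4.51% of all genes. All 16 were below 0 there (median -0.59). Without 0 h replicate 4, 13 were called lower, against 6.35% of all genes. In XVE:EPFL4, 4 of the 16 were called lower at 3 h (median -0.26, all 16 below 0), a smaller share than among the 150. At 8 h against 3 h, 12 of the 16 were called higher in that line (median 0.48), against 16.4% of all genes. At 8 h against 0 h, 4 of the 16 were called higher and 0 lower in that line (median 0.20). Over all genes 22.8% were called higher and 20.2% lower, so the share called higher was close to that of all genes. FIB1 encodes fibrillarin, the methyltransferase of rRNA-modifying box C/D particles. It had 139, 128 and 135 CPM in er XVE:ER at 3 h, against 270.1, 256, 264 and 163 CPM at 0 h (-0.83 ± 0.17 SE, adjusted p = 0.0131). In XVE:EPFL4, FIB1 had 178, 163, 166 and 179.8 CPM at 3 h, against 234, 225, 258 and 250.3 CPM at 0 h (-0.50 ± 0.10 SE, adjusted p = 0.0031), and in both lines the groups did not overlap. NOP10, a subunit of the H/ACA particles that convert uridine in rRNA, had 31.2, 28.2 and 29.7 CPM in er XVE:ER at 3 h, against 54.9, 51.6, 55.7 and 46.6 CPM at 0 h (-0.82 ± 0.20 SE, adjusted p = 0.0285). The genes for AT4G12600 (a protein of the L7Ae family) and AT2G37600 (ribosomal protein L36e), whose promoters are shown above, were not called at 3 h in either line and were called higher at 8 h against 3 h in both (0.98 ± 0.21 SE and 0.84 ± 0.21 SE in er XVE:ER). Without er XVE:ER 0 h replicate 4 both were called lower at 3 h in that line, AT4G12600 with -0.76 ± 0.17 (SE, adjusted p = 0.0117) and AT2G37600 with -0.71 ± 0.21 (SE, adjusted p = 0.0454).

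Most genes of a separate ribosome biogenesis list were not called at 3 h. Of its 10 genes, FIB1 was the only one among the 150. 1 of the 10 was called lower and 0 higher at 3 h in er XVE:ER (median -0.08). In XVE:EPFL4, 1 of the 10 was called lower and 2 higher (median 0.04). The 2 called higher were NUC-L1 (nucleolin, 0.37, adjusted p = 0.0361) and FIB2 (0.30, adjusted p = 0.0379), the close copy of FIB1. Reads from copies so alike can be hard to assign, so the values of FIB1 and FIB2 are uncertain to that degree. At 8 h against 3 h, 9 of the 10 list genes were called higher and 0 lower in XVE:EPFL4 (median 0.52). Of all genes, 16.4% were called higher and 14.8% lower. At 8 h against 0 h, 8 of the 10 were called higher and 0 lower in that line (median 0.50), against 22.8% and 20.2%. In er XVE:ER, 3 of the 10 were called higher at 8 h against 3 h and 2 at 8 h against 0 h. The shares of all genes were 6.92% and 12.1%. The rise from 3 h to 8 h was thus also seen in list genes outside the 150.

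The group of plastid chaperones and plastid gene expression held 11 genes. Of these, 2 were called lower at 3 h in er XVE:ER, against 2.53% of all genes. Without 0 h replicate 4, 10 were called lower, against 6.35%. At 8 h against 3 h in that line 4 were called higher, against 6.92%. In XVE:EPFL4, 9 of the 11 were called lower at 3 h and all 11 higher at 8 h against 3 h. CR88 had 341, 327, 322 and 339.9 CPM in XVE:EPFL4 at 3 h, against 645, 574, 480.3 and 590.1 CPM at 0 h (-0.79 ± 0.10 SE, adjusted p = 9.6e-05). In er XVE:ER it had 251, 294 and 293 CPM at 3 h, against 745, 674, 701 and 254 CPM at 0 h. Here too 0 h replicate 4 stood among the 3 h values, and CR88 was called without that library (-1.35 ± 0.17 SE, adjusted p = 0.000532) but not with it (adjusted p = 0.0556). CPN60A, the alpha subunit of the chaperonin that folds the large subunit of Rubisco, had 339.8, 367 and 382 CPM in er XVE:ER at 3 h, against 712, 687, 722 and 538 CPM at 0 h (-0.87 ± 0.17 SE, adjusted p = 0.011). In XVE:EPFL4, CPN60A had 445 to 487 CPM at 3 h, against 649.7 to 781 CPM at 0 h (-0.57 ± 0.09 SE, adjusted p = 0.000371). The stromal HSP70 cpHsc70-2 (-0.74 ± 0.09 SE) fell in XVE:EPFL4 as well. Outside these groups PDE340, a P-loop nucleoside triphosphate hydrolase whose neighbouring close copy STRS2 is also among the 150, so that reads may be shared, showed the same course in XVE:EPFL4, with 119, 112, 112 and 111 CPM at 0 h, 76.8, 78.1, 71.2 and 79.0 CPM at 3 h, and 163, 169.9, 167 and 179.7 CPM at 8 h. The libraries of the 3 times did not overlap for this gene.

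The sugar and starch group held BT2, CT-BMY, DIN10 and BGAL1. BT2 had 113, 176 and 287 CPM in er XVE:ER at 3 h, against 436, 419, 483 and 373 CPM at 0 h (-1.16 ± 0.27 SE, adjusted p = 0.0226). At 8 h in er XVE:ER it had 649.9, 993, 919 and 938 CPM, above every library of the other times (1.03 ± 0.24 SE against 0 h, adjusted p = 0.00931). In XVE:EPFL4, BT2 had 211, 258, 334 and 395 CPM at 0 h, 182, 177, 209 and 219.6 CPM at 3 h, and 659, 431, 425 and 501 CPM at 8 h, so that 3 h and 0 h overlapped (-0.61 ± 0.19 SE, adjusted p = 0.0312). DIN10 was not called at 3 h in er XVE:ER (-1.27 ± 0.50 SE, adjusted p = 0.155) or in XVE:EPFL4 (-0.26 ± 0.21 SE, adjusted p = 0.423). BGAL1 fell in XVE:EPFL4, to 318, 382, 399 and 388 CPM at 3 h against 796, 658, 555 and 803 CPM at 0 h, and was still low at 8 h, with 244 to 369.6 CPM.

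Lists of related genes showed how far these members stood for their pathway. Of 13 starch breakdown genes CT-BMY was the only one among the 150, and the only one called lower at 3 h in XVE:EPFL4, while 11 of the 13 were called higher (median 1.95). The er XVE:ER line had 0 of the 13 called lower and 6 higher (median 1.28). PHS2, the cytosolic glucan phosphorylase, had a log2 fold change of 3.26 in XVE:EPFL4. Of 19 carbon starvation genes, which include BT2 and DIN10, 7 were called lower and 5 higher in XVE:EPFL4, and 3 lower and 1 higher in er XVE:ER.

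Of the 9 genes of amino acid and nucleotide metabolism, 5 were called lower at 3 h in er XVE:ER (median -0.68) and 7 in XVE:EPFL4 (median -0.45). Of the 6 genes of DNA replication, cell cycle and histones, 2 were called lower in er XVE:ER (5 without 0 h replicate 4) and 5 in XVE:EPFL4. PSF1, a subunit of the GINS complex of the replication fork, had 6.63, 7.45 and 7.68 CPM in er XVE:ER at 3 h, against 15.0 to 17.43 CPM in the 4 libraries at 0 h (-1.18 ± 0.12 SE, adjusted p = 0.000414). In XVE:EPFL4 it had 7.06 to 8.54 CPM at 3 h, against 10.8 to 15.2 CPM at 0 h (-0.74 ± 0.14 SE, adjusted p = 0.00217). Thus PSF1 separated in both lines, and 0 h replicate 4 of er XVE:ER lay with its group for this gene.

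**Figure D3:**
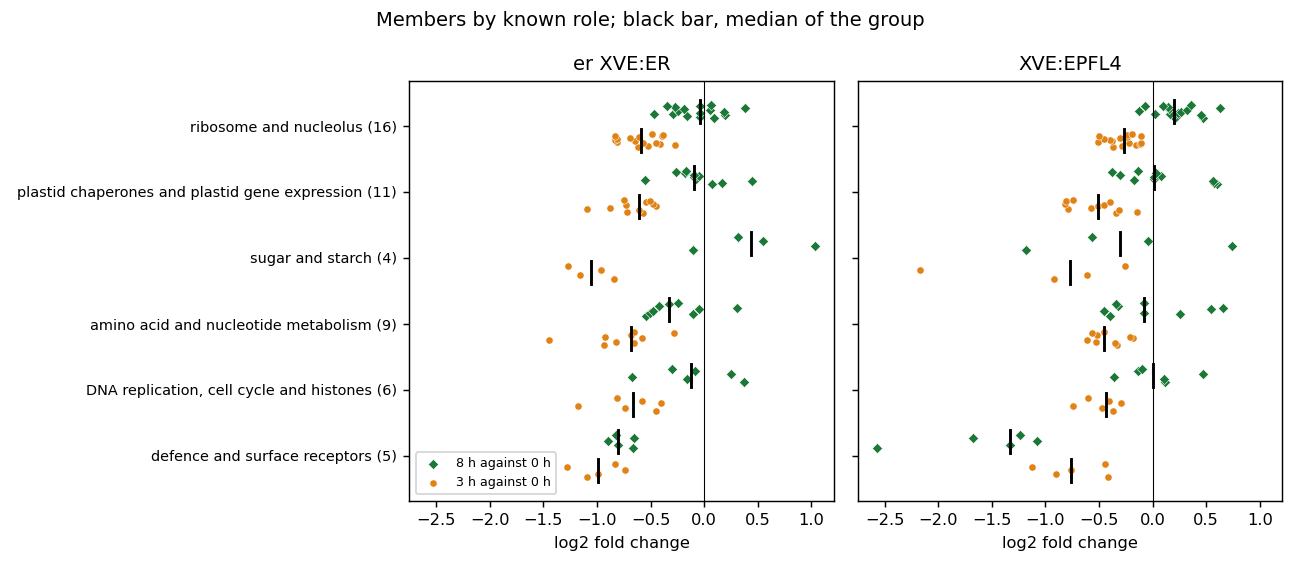
Fitted log2 fold changes of the 51 genes in 6 role groups at 8 h against 0 h (green diamonds) and at 3 h against 0 h (orange circles), in er XVE:ER (left) and XVE:EPFL4 (right), with the median of each group as a black bar. The ribosome genes sit below 0 at 3 h, while at 8 h their median is -0.04 in er XVE:ER and 0.20 in XVE:EPFL4, and the 5 defence and surface receptor genes sit below 0 at both times.

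By contrast, most of the 5 defence and surface receptor genes were still lower at 8 h than at 0 h. They are CRK10 (a cysteine-rich receptor kinase), WAKL2 (a wall-associated kinase-like gene), PEPR1 (the receptor of Pep danger peptides), NSL1 (a MAC/Perforin domain protein that restrains cell death) and AT5G22690 (a TIR-NBS-LRR resistance gene). In XVE:EPFL4, 4 of the 5 were called lower at 3 h against 0 h, 4 lower again at 8 h against 3 h, and all 5 lower at 8 h against 0 h (median -1.33). 4 of the 5 were called lower at 3 h in er XVE:ER, 0 were called at 8 h against 3 h, and 4 were called lower at 8 h against 0 h (median -0.80). Of all genes, 2.53% were called lower at 3 h and 10.4% at 8 h against 0 h in that line. Without er XVE:ER 0 h replicate 4, CRK10 was called higher at 8 h against 3 h (0.63 ± 0.20 SE, adjusted p = 0.0412). A separate list of salicylate and defence genes, which holds none of the 150, had 2 of 9 tested genes called lower and 4 higher at 8 h against 0 h in er XVE:ER (median 0.75), and 4 of 12 lower and 2 higher in XVE:EPFL4 (median -0.04). Over all genes the shares called lower and higher were 10.4% and 12.1% in er XVE:ER, and 20.2% and 22.8% in XVE:EPFL4. CRK10 had 123, 123, 143 and 150.3 CPM in XVE:EPFL4 at 0 h, 71.0, 53.0, 57.7 and 67.1 CPM at 3 h, and 29.7, 51.1, 42.9 and 47.6 CPM at 8 h. In WT its 8 h libraries had 126, 19.9, 29.3 and 103 CPM, so the WT mean near the start joined a pair of libraries above all WT 3 h libraries to a pair below them. WAKL2 had 1.07 to 1.76 CPM in XVE:EPFL4 at 8 h, against 7.45 to 9.41 CPM at 0 h (-2.57 ± 0.18 SE, adjusted p = 5.94e-08), and 16.9, 1.02, 1.49 and 13.99 CPM in WT at 8 h.

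The 17 genes called lower at 8 h against 3 h in XVE:EPFL4 also took in AT1G05675, AT2G24600, AT2G25460, AT1G50740, AT5G39580, AT2G39400 and XTR6. XTR6, a xyloglucan endotransglycosylase of the cell wall, had 24.1, 22.4, 18.3 and 24.6 CPM in XVE:EPFL4 at 0 h, 20.9, 14.5, 18.23 and 19.1 CPM at 3 h, and 3.82, 4.44, 6.18 and 3.79 CPM at 8 h. In WT at 8 h XTR6 had 44.0, 3.104, 4.14 and 30.6 CPM, which is the split seen for CRK10 and WAKL2. AT2G24600 had 76.2, 68.7, 80.6 and 69.9 CPM in XVE:EPFL4 at 0 h, 30.8, 18.22, 20.8 and 30.0 CPM at 3 h, and 5.81, 9.13, 9.47 and 10.2 CPM at 8 h, a fall at each step (-3.11 ± 0.19 SE at 8 h against 0 h, adjusted p = 2.04e-08).

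Of 18 flavonoid and anthocyanin genes, 16 were tested, and TT4 and PAL1 were among the 150. In XVE:EPFL4, 3 of the 16 were called lower and 0 higher at 3 h, and in er XVE:ER 0 were called. TT4, chalcone synthase, had 310.0, 327, 317 and 287 CPM in XVE:EPFL4 at 3 h, against 586, 598, 521 and 538 CPM at 0 h (-0.86 ± 0.15 SE, adjusted p = 0.00112). For TT4, er XVE:ER seedlings had 432, 317 and 302 CPM at 3 h, against 633, 549, 554 and 110.0 CPM at 0 h, where replicate 4 again stood apart. PAL1, the first enzyme of the phenylpropanoid pathway, fell in XVE:EPFL4 (-0.62 ± 0.19 SE, adjusted p = 0.0343) and was lower at 8 h as well (-0.89 ± 0.19 SE against 0 h).

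**Figure D4:**
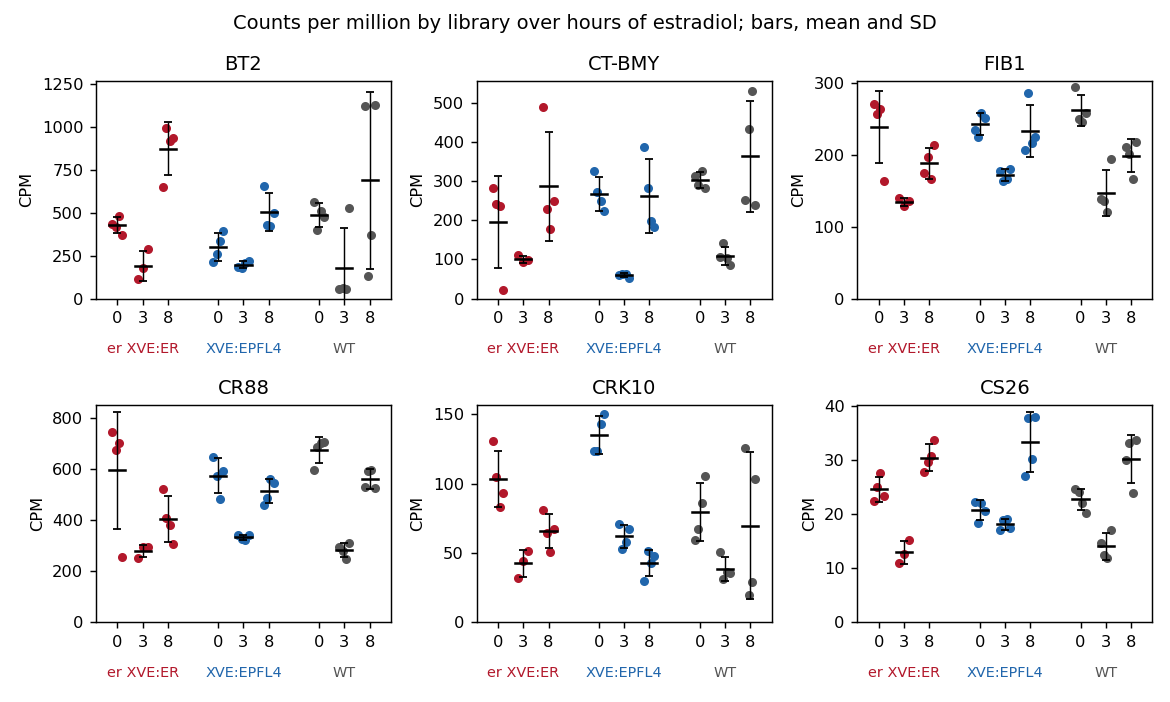
CPM in each library (points) with the mean and SD (bars) for BT2, CT-BMY, FIB1, CR88, CRK10 and CS26 at 0 h, 3 h and 8 h of estradiol in er XVE:ER, XVE:EPFL4 and WT; the axes start at 0. CRK10 in XVE:EPFL4 is lower at each later time, whereas CT-BMY, FIB1 and CR88 are lowest at 3 h in that line.

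The genes encoding photosynthetic proteins were not a group among the 150, but RBCS1B, a small subunit of Rubisco from a family of close copies among which reads may be split, was the gene with the highest level. It had 1012, 1019, 909.6 and 981 CPM in XVE:EPFL4 at 3 h, against 2375, 1813, 1997 and 1855 CPM at 0 h (-1.04 ± 0.17 SE, adjusted p = 0.000709). In er XVE:ER it had 969, 1029.9 and 1062 CPM at 3 h, against 2016, 1884, 1963 and 737 CPM at 0 h, and was not called (adjusted p = 0.241). Without 0 h replicate 4 RBCS1B was called lower (-0.94 ± 0.24 SE, adjusted p = 0.0207).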

How the data were processed

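RNA-seq libraries from 35 seedling samples of 9 conditions were used. The authors deposited raw read counts per gene for each library, made with STAR 2.7.11a on the TAIR10 genome per the submitters' notes. The strand setting of the counting and the handling of duplicate reads are not given in the sources used here. Total counts ran from 18224765 to 25089853 per library. The 150 genes were chosen from CPM of the library total with a pseudocount of 1. Library values in the text are CPM scaled by TMM factors.

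Counts were filtered with filterByExpr (minimum count 10, minimum total 15) and tested with the quasi-likelihood test of edgeR 4.0.16 in R 4.3.3, with Benjamini-Hochberg adjustment over all genes tested. The libraries of a line at 0 h, 3 h and 8 h entered 1 fit, and those of both lines entered the fit for the difference of their responses. DESeq2 1.42.0, other scalings, filters and limits, a replicate block and fits without each library were run as alternatives. The test was also tried on simulated data. Gene names, annotations and sequences come from RefSeq TAIR10.1. No coordinates were converted between builds.

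The genes named by rule were the 8 with the deepest WT dip, the 6 largest falls per line among genes called with groups that did not overlap, the 4 highest 3 h values per line, the 4 with the lowest p for the difference between the lines, up to 3 members of each list that held 2 or more, and the genes next to the limit. Other genes were named after their values were seen. The 150 genes and all gene lists were chosen with earlier results of these data known. Of 34 gene lists, 5 held a gene among the 150, and these lists are described, the phosphate starvation list only through its member SQD1. So are the lists of the morning clock, the evening clock, the cell cycle, and salicylate and defence, and the root and shoot markers. No other list is described.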

Additional observations from a re-analysis of the deposited data

Results flagged for a closer look

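Among groups of 4 libraries, the highest or lowest library was set against the others for the named genes and for the median over the 150 genes. In 24 of 224 groups its gap to the nearest library exceeded 0.829 of the group's range. That limit is Dixon's critical value for 1 in 20 independent groups. The rate does not apply here, because the genes share libraries and were named on their values. The groups also include WT libraries, whose values chose the genes. The count is thus a description, with no test. These included 9 in er XVE:ER 0 h replicate 4 and 8 in WT 3 h replicate 4.

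In er XVE:ER 0 h replicate 4 the median over the 150 genes was -0.37, against 0.11 to 0.20 in the other er XVE:ER libraries at 0 h. In the same library CR88 was at 253.9 CPM (others 674.1 to 745.3), AT3G59670 at 11.1 CPM (27.0 to 29.0), AT5G17040 at 0.492 CPM (4.51 to 5.13), TT4 at 110.0 CPM (548.9 to 633.2) and Phox3 at 12.4 CPM (32.2 to 34.05). By contrast, ABCG42 was high there at 26.3 CPM (8.60 to 11.1), as were AT2G31810 at 309.7 CPM (119.7 to 133.0) and AT2G39400 at 79.8 CPM (23.4 to 26.1).

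In WT 3 h replicate 4, BT2 was at 528.4 CPM (others 56.0 to 61.7), DIN10 at 1333 CPM (163.7 to 241.5), BGAL1 at 918.7 CPM (209.4 to 232.3), AT2G31810 at 151.5 CPM (50.7 to 52.4), AT2G39400 at 33.6 CPM (14.3 to 17.5) and AT5G25240 at 16.3 CPM (2.15 to 4.18). AT5G17040 at 1.24 CPM (3.59 to 3.87) and Phox3 at 13.1 CPM (22.9 to 23.9) were low there.

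The other 7 were spread over 7 libraries. In WT at 0 h, CR88 was at 596.8 CPM in replicate 1 (685.7 to 703.8), AT2G31810 at 119.7 CPM in replicate 2 (142.2 to 145.1) and AT1G50740 at 19.4 CPM in replicate 4 (14.9 to 15.4). PPa2 was at 53.5 CPM in er XVE:ER 8 h replicate 1 (12.9 to 19.4) and at 68.3 CPM in XVE:EPFL4 0 h replicate 1 (50.2 to 52.6). AT4G22517 was at 15.4 CPM in XVE:EPFL4 3 h replicate 3 (24.2 to 25.7), and TT4 at 234.6 CPM in XVE:EPFL4 8 h replicate 2 (397.0 to 430.3).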

How the results depend on the processing

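For the 27 members of the 150 that were named by rule, no called direction at 3 h reversed under the alternatives, but counts in er XVE:ER moved with single libraries. Leaving out 1 library at a time gave 16 to 109 genes lower at 3 h (56 with all libraries), 12 to 76 higher at 8 h against 3 h (38) and 15 to 54 called at 8 h against 0 h (22). In XVE:EPFL4 the same gave 75 to 104 (93), 70 to 83 (80) and 69 to 82 (77), and for the difference between the lines 0 to 2 (0). In these fits the share of all genes called lower at 3 h ran from 0.429% to 6.35% in er XVE:ER. In XVE:EPFL4 it ran from 7.09% to 13.5%. The share called higher at 8 h against 3 h ran from 2.35% to 12.8% in er XVE:ER and from 11.9% to 18.5% in XVE:EPFL4. Without replicate number 4 in every group the er XVE:ER counts were 111, 73 and 62 and the count for the difference was 1. The er XVE:ER count at 8 h against 0 h was 36 with all 35 libraries in 1 fit. It was 10 with genes chosen on TMM-scaled CPM, a set that shared 113 of the 150 genes. It was 12 with an 8 h limit of 0.25, a set that shared 70. With that limit, 61 genes were lower at 3 h in XVE:EPFL4. For the difference between the lines DESeq2 called 2 genes and a fit of only the groups compared called 1. Genes chosen without WT 3 h replicate 4, of which 109 were among the 150, gave 1. For alternatives other than leaving out 1 library, the share of all genes called is not given here. Whether their counts moved with the calls over all genes is thus not shown. The cause of these shifts was not tested.

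With the replicate number as a block, 51, 42 and 25 genes were called in er XVE:ER, 81, 73 and 73 in XVE:EPFL4 and 0 for the difference. The share of all genes called in these block fits is not given here either. Whether the numbers pair the samples is not settled. Deviations of same-numbered libraries correlated at over 0.1 in 7 of 10 pairs in er XVE:ER and in 2 of 12 in XVE:EPFL4. A library matched its own number best in 16 of 44 cases.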
